A study of Homo sapiens with 6 samples.

Results

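The semaphorins, ephrins, Slits and netrins, together with the plexin, neuropilin, Eph, Robo and UNC5 receptors that read them, were followed in human cardiomyocytes derived from pluripotent stem cells. Members were taken by symbol: every gene beginning with SEMA, PLXN, EPHA, EPHB, EFNA, EFNB, ROBO or UNC5, with SLIT1, SLIT2, SLIT3, NTN1, NTN3, NTN4, NTN5, NRP1 and NRP2. This gave 70 of the 35793 genes listed, after 1 pseudogene was left out. UNC50, a Golgi membrane protein, and UNC5CL, a death-domain adaptor, matched by their letters only and belong to neither the ligands nor the receptors. The other 68 comprised 35 ligands and 33 receptors.

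Both groups were cardiomyocytes on day 15 of differentiation, with no treatment. The wild type was WTC11, an established induced pluripotent stem cell line, and the knockout was an STK25 homozygous knockout made from it with CRISPR/Cas9. STK25 is a serine/threonine kinase. Each genotype had 3 replicates that the study calls biological, so 6 libraries were compared. The knockout was 1 derived line, so the loss of STK25 and any other difference between the lines cannot be told apart. Whether replicates came from separate differentiations is not stated in the sources used here, and p-values measure the spread between these samples.

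Guidance ligands are secreted or membrane-bound proteins that attract or repel growing axons and migrating cells, and their receptors act mostly on the actin cytoskeleton and on adhesion. In the heart the same families are known for patterning the outflow tract, the vessels and the autonomic innervation. Class 3 semaphorins are secreted and bind neuropilins paired with plexins, ephrins on one cell bind Eph receptor kinases on another, Slits bind Robos, and netrins bind DCC and UNC5 receptors.

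The libraries held 22443904 to 53224112 reads assigned to genes, a 2.37-fold range. All values below are normalized counts, that is, reads divided by 1 scaling factor per library, and are given in the order of replicates 1, 2 and 3. STK25 was at 8874, 6774 and 8710 in the wild type and at 3906, 3434 and 3820 in the knockout, a log2 fold change of -1.12 ± 0.19 (SE, limma, adjusted p = 0.00903). It was lower in all 3 knockout libraries, but its RNA was not lost. In a principal component analysis the first component, 55.6% of the variance, separated the genotypes. On the second, 24.1%, 2 libraries stood away from the remaining 4: replicate 2 of the wild type and replicate 1 of the knockout. Without these 2 libraries all 20 guidance genes called below kept their call, and the count rose to 13 higher and 16 lower, with 28.9% of all genes called. The 2 were picked for standing apart in these same values. Their removal narrows the spread within genotypes, so the kept calls are no independent check.

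The labelled cell type was checked with marker genes. All 10 cardiomyocyte markers were detected well enough to be tested, and their summed level was 1290636 to 1629427 in the wild type and 1876236 to 3488085 in the knockout. Only NKX2-5, a cardiac transcription factor, fell among them. Smooth muscle markers summed to 94754 to 103878 in the wild type and 506839 to 554725 in the knockout, and 5 of 9 rose. For the 12 neural and neural crest markers the sum was 75.9 to 127 in the wild type and 480 to 836 in the knockout. SOX2, PAX6 and TUBB3 rose among these, while SOX10 had no read. The 10 endothelial markers summed to 1023 to 1337 in the wild type and 1718 to 2617 in the knockout, and only ESAM rose. The defining endothelial genes CDH5, TIE1 and ERG had at most 3 reads in every library. Fibroblast markers overlapped between genotypes in sum, at 12981 to 26550 and 8414 to 16844, with 4 of 10 higher, 1 lower and FAP without a read. Epicardial markers were lower in sum in the knockout, at 5524 to 5838 against 11624 to 15443. Of the 8, ALDH1A2 was higher, KRT19 lower and MSLN at most at 1 read, and the 7 tested had a median log2 fold change of 0.16. Endoderm markers summed to 1673 to 3009 in the wild type and 1493 to 1663 in the knockout, with 1 of 10 higher, 1 lower, and FOXA2 and CDX2 without a read. Pluripotency markers summed to 1274 to 1767 in the wild type and 3129 to 4634 in the knockout. Only TDGF1 of the 8 was higher, and the 7 tested had a median log2 fold change of 0.12. These sums are carried mainly by the most abundant markers of each list. The part of these shifts in the guidance results below was not tested. In RNA from whole cultures, fewer cells of a type and less RNA per cell cannot be told apart.

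Guidance genes moved in both directions in the knockout. EPHA5 and EPHA6 had no read in any library, and 9 other members had a mean under 10 normalized counts and were not tested: EPHA8, EPHA10, NTN1, NTN3, NTN5, ROBO4, SEMA5B, UNC5A and UNC5D. Of the 59 members tested with limma on log2(normalized count + 1), 20 (33.9%) had a Benjamini-Hochberg adjusted p under 0.05 over all genes. The share among all 15536 genes tested was 12.8%. Higher in the knockout were 8 members, SEMA3G, SEMA6A, PLXNA2, EFNA1, EFNB2, EPHB1, SLIT2 and NTN4, with 5.97% of all genes called in that direction. Lower were 12, SEMA3A, SEMA3B, SEMA4F, SEMA6D, NRP2, PLXNA4, EFNB3, EPHA4, EPHB6, SLIT1, ROBO1 and ROBO2, with 6.79% of all genes called lower. The libraries of the 2 genotypes did not overlap for 28 members (47.5%), against 33.4% of all genes.

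Ligands divided evenly, with 6 of 31 tested higher and 6 lower. Among the 26 receptors tested, 2 rose and 6 fell. The median log2 fold change of the 59 members was -0.06 and that of all genes 0.0052, while the median size of the change was 0.87 among the members and 0.46 among all genes. Of the 20 members called, 19 had a fitted change of at least 2-fold, EFNA1 being the exception. Large changes pass the threshold more easily than small ones, and the same count was not made over all called genes. The count of 19 is therefore no trait of the guidance genes. When the libraries were scaled to equal totals in place of the deposited factors, the median of all genes moved to -0.27. Of the members 5 were called higher and 14 lower. Among all 15536 genes the deposited factors gave 927 higher and 1055 lower, and equal totals gave 549 and 1456. SEMA3G, EPHB1 and PLXNA2 then missed the threshold, and SEMA6B and UNC5C passed it on the lower side.

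**Figure D1:**
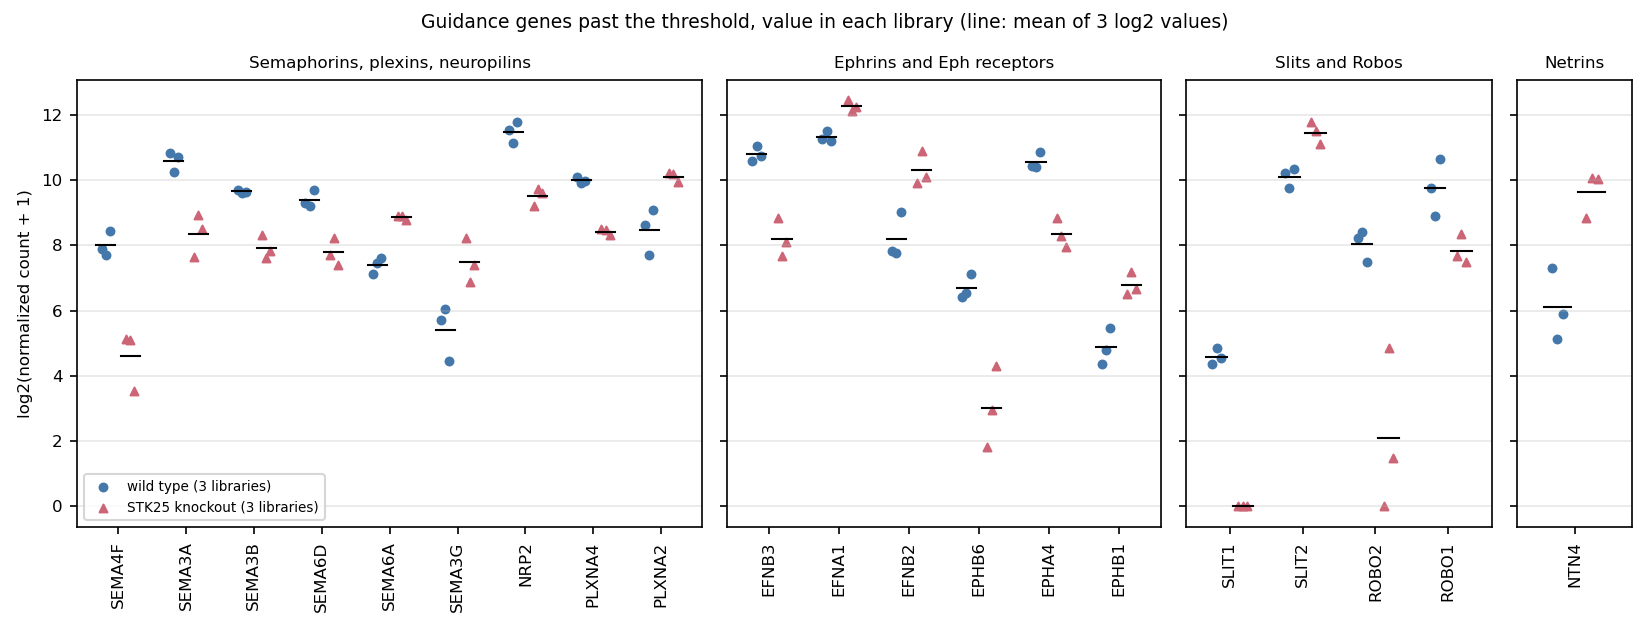
Value of each called guidance gene in each of the 6 libraries, as log2(normalized count + 1), with circles for the 3 wild-type and triangles for the 3 knockout libraries and a line at each group's mean log2 value. The groups do not overlap for any of the 20 genes, and SLIT1 sits at 0 in all 3 knockout libraries. The genes were called from these same values, so the lack of overlap is no separate support.

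**Figure D2:**
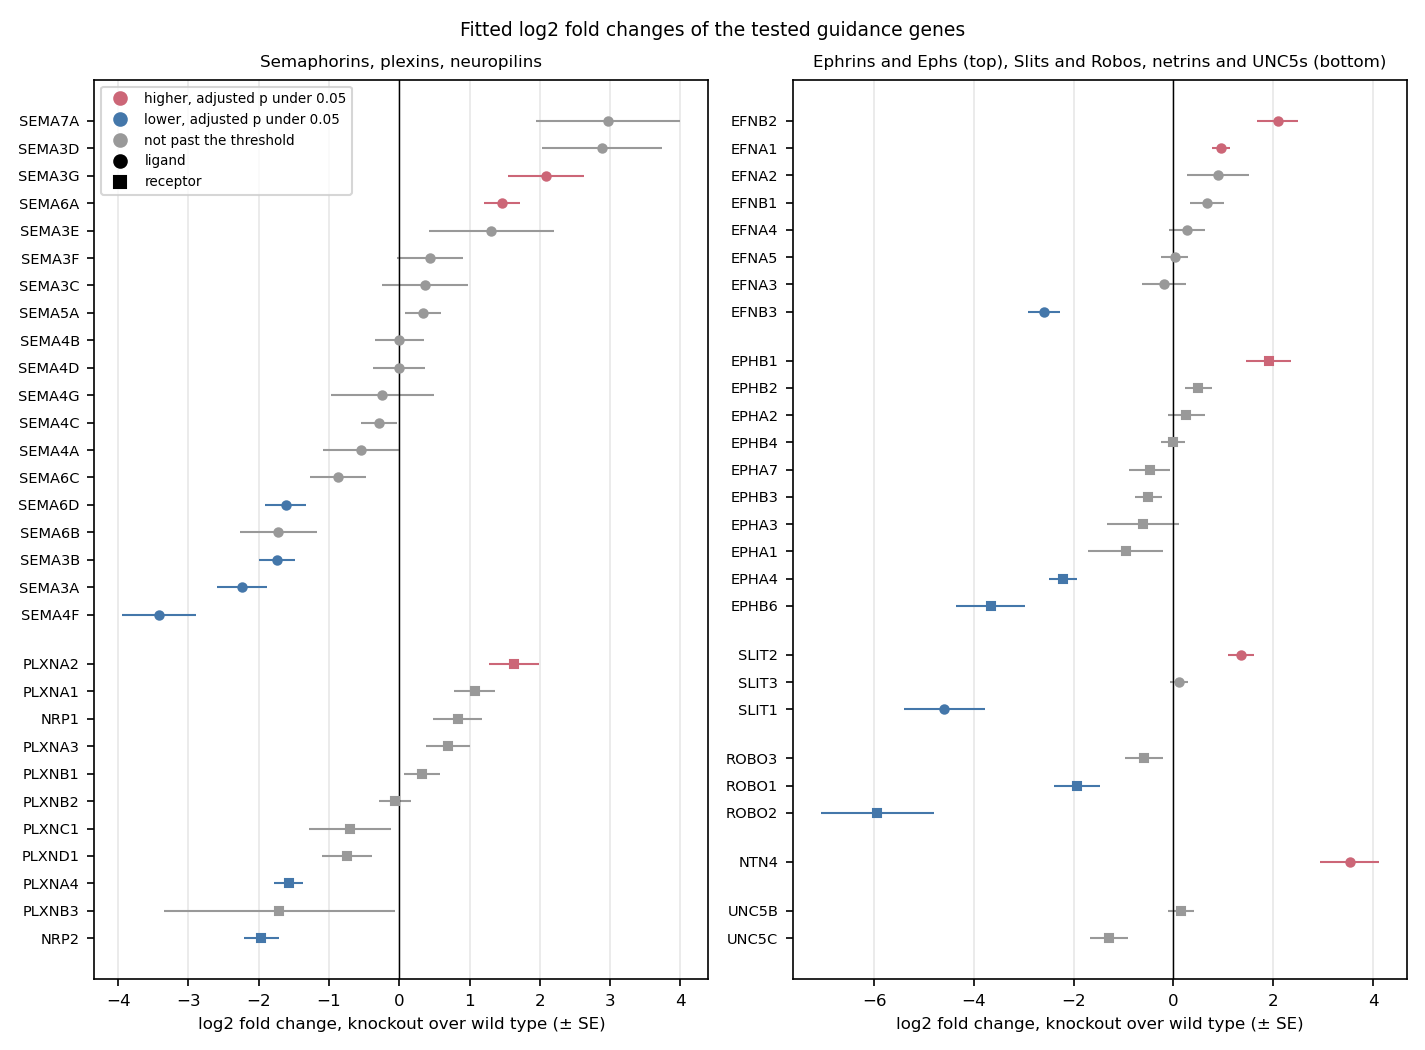
Fitted log2 fold change, knockout over wild type, of 57 tested ligands and receptors, with bars of 1 SE from limma; UNC50 and UNC5CL are left out. Red marks the 8 genes called higher, blue the 12 called lower, and circles and squares are ligands and receptors.

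Among the secreted class 3 semaphorins, SEMA3A and SEMA3B fell and SEMA3G rose. SEMA3A, a repellent of axons that is known to pattern the sympathetic innervation of the heart, lies on chromosome 7 (chr7:83955777-84492724, minus strand, GRCh38). It was at 1806, 1210 and 1662 in the wild type and at 198, 489 and 357 in the knockout. Every knockout library was below every wild-type library, by 4.48-fold in the ratio of group means. The log2 fold change was -2.23 ± 0.36 (SE, limma, adjusted p = 0.00696).

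SEMA3B (chr3:50267558-50277546, plus strand), another secreted repellent, was at 835, 784 and 791 in the wild type and 317, 194 and 227 in the knockout. The wild-type libraries lay close together and all were above the knockout ones, with a log2 fold change of -1.74 ± 0.26 (SE, limma, adjusted p = 0.00514). SEMA3G (chr3:52433053-52445085, minus strand), a class 3 semaphorin known from vascular endothelium, was at 51.4, 65.5 and 21.1 in the wild type and at 296, 116 and 169 in the knockout. Its 3 knockout values were all higher but spread widely, with a log2 fold change of 2.09 ± 0.55 (SE, limma, adjusted p = 0.0446). SEMA3G missed the threshold in 11 of 19 alternative fits, including edgeR's quasi-likelihood test (adjusted p = 0.052).

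The other class 3 genes gave no call. SEMA3C, which guides neural crest cells into the outflow tract, had the highest mean of the class, at 1557, 609 and 2089 in the wild type and 688, 2643 and 2332 in the knockout. Wild-type replicate 2 and knockout replicate 1, the libraries that stood apart, held its lowest value in each genotype. Its log2 fold change was 0.37, with a 95% confidence interval of -1.05 to 1.78. SEMA3E, a ligand of PLXND1, showed the same low libraries, at 166, 32.0 and 63.2 in the wild type and 45.8, 387 and 296 in the knockout. SEMA3D was low, at 1.51, 6.86 and 17.9 in the wild type and at 29.2, 51.3 and 94.2 in the knockout. The SEMA3D groups did not overlap and the log2 fold change was 2.89 ± 0.86 (SE, limma, adjusted p = 0.0671). SEMA3F, a ligand of NRP2, was at 51.1 ± 3.63 and 75.3 ± 33.4 (wild type and knockout, SD, n = 3) and was not called.

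SEMA3A, SEMA3C, SEMA3D and SEMA3E are neighbours on the long arm of chromosome 7, between chr7:80742538 and 85186855. Of these 4, only SEMA3A was called, and the fitted changes of the other 3 were above 0. SEMA3B and SEMA3F are neighbours on chromosome 3, where SEMA3B fell and SEMA3F had a log2 fold change of 0.44 with a confidence interval of -0.65 to 1.52.

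Transmembrane semaphorins of class 4 held 1 call. SEMA4F (chr2:74654228-74683853, plus strand) was at 237, 209 and 348 in the wild type and at 34.3, 33.4 and 10.7 in the knockout. It was 10.1-fold lower by group means with no overlap, and its log2 fold change of -3.42 ± 0.52 (SE, limma, adjusted p = 0.00591) was the steepest fall among the 19 semaphorin ligands tested. SEMA4B, the most abundant class 4 gene in normalized counts, was at 910 ± 308 (SD, n = 3) in the wild type and 896 ± 246 in the knockout. Its log2 fold change was 0.0011, with a confidence interval of -0.80 to 0.80. SEMA4A, SEMA4C, SEMA4D, the ligand of PLXNB1, and SEMA4G had fitted changes between -0.54 and -0.01 and none was called.

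Class 6 semaphorins, transmembrane ligands of class A plexins, moved in opposite directions. SEMA6A (chr5:116443616-116574934, minus strand) was at 139, 173 and 195 in the wild type and at 477, 477 and 440 in the knockout. All 3 knockout libraries were higher and close together, with a log2 fold change of 1.47 ± 0.25 (SE, limma, adjusted p = 0.00997). SEMA6D (chr15:47184101-47774223, plus strand), known in the heart from work on ventricular wall growth, was at 631, 588 and 825 in the wild type and 208, 299 and 169 in the knockout. It fell without overlap, with a log2 fold change of -1.62 ± 0.29 (SE, limma, adjusted p = 0.0119). SEMA6B and SEMA6C were lower in all 3 knockout libraries without a call, at log2 fold changes of -1.72 (adjusted p = 0.0819) and -0.87 (adjusted p = 0.208, limma).

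Exons of SEMA6A overlap those of SEMA6A-AS1 and SEMA6A-AS2 in GENCODE 29, and SEMA3B overlaps the microRNA gene MIR6872. In all, 7 of the 20 called members overlap an exon of another gene: EFNB2, EPHA4, EPHB1, NRP2, SEMA3B, SEMA6A and SLIT1. Whether counting used strand is not stated in the sources used here, so the reads of these genes and of their partners may be mixed.

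In class 5, SEMA5A, which carries thrombospondin repeats, was at 1585 ± 291 (SD, n = 3) in the wild type and 2022 ± 503 in the knockout and was not called. SEMA5B had 3.02, 16.0 and 3.83 in the wild type and no read in the knockout. SEMA7A, the membrane-anchored ligand of PLXNC1 and of integrins, was at 3.02, 24.4 and 0.638 in the wild type and at 59.7, 50.2 and 24.9 in the knockout. Its groups did not overlap, yet the nearest values were 24.4 and 24.9, and the log2 fold change of 2.97 ± 1.03 (SE, limma) had an adjusted p of 0.105.

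Of the 2 neuropilins, which bind class 3 semaphorins and forms of VEGF, NRP2 fell and NRP1 was not called. NRP2 (chr2:205681990-205798133, plus strand) was at 2951, 2256 and 3511 in the wild type and at 590, 853 and 784 in the knockout. It was 3.92-fold lower with no overlap, a log2 fold change of -1.96 ± 0.24 (SE, limma, adjusted p = 0.00256). NRP1 was at 4735, 2500 and 5238 in the wild type and at 4927, 9503 and 7431 in the knockout. Knockout replicate 1 fell within the wild-type range, and NRP1 was not called, with a log2 fold change of 0.83 (confidence interval 0.02 to 1.64, adjusted p = 0.173, limma). Without wild-type replicate 2 and knockout replicate 1, NRP1 passed the threshold, at 0.75.

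Of the 4 class A plexins, the signalling partners of neuropilins, PLXNA4 fell and PLXNA2 rose. PLXNA4 (chr7:132123332-132648688, minus strand) was at 1088, 957 and 1012 in the wild type and at 357, 352 and 315 in the knockout. Each genotype was tight, and the log2 fold change was -1.57 ± 0.20 (SE, limma, adjusted p = 0.00293). PLXNA2 (chr1:208022242-208244320, minus strand), a receptor used by cardiac neural crest, was at 396, 206 and 546 in the wild type and 1177, 1156 and 973 in the knockout. All knockout values were higher, with a log2 fold change of 1.63 ± 0.36 (SE, limma, adjusted p = 0.0243). PLXNA1 was just outside, at 4546, 2676 and 4393 in the wild type and 5838, 10436 and 8135 in the knockout. Its groups did not overlap and the log2 fold change was 1.07 ± 0.30 (SE, limma, adjusted p = 0.0536). PLXNA3 was also higher in all 3 knockout libraries without a call, at a log2 fold change of 0.69 (adjusted p = 0.209, limma).

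Plexins outside class A gave no call. PLXNB2, the most abundant of the class B receptors of class 4 semaphorins, was at 2311 ± 555 (SD, n = 3) in the wild type and 2166 ± 121 in the knockout, with a log2 fold change of -0.06 and a confidence interval of -0.60 to 0.47. PLXNB1 was at 614 ± 137 and 762 ± 112, and PLXNB3 was at 0 in 2 knockout libraries and between 1.51 and 45.3 in the other 4. PLXND1, the endothelial receptor for SEMA3E, was at 257 ± 50.1 in the wild type and 159 ± 64.3 in the knockout (SD, n = 3). PLXNC1 was low in both, at 33.6 ± 17.3 and 19.1 ± 5.51.

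In the ephrins, EFNA1 and EFNB2 rose and EFNB3 fell. EFNA1 (chr1:155127460-155134857, plus strand), which is held in the membrane by a lipid anchor and binds EphA receptors, was at 2450, 2873 and 2351 in the wild type and at 5561, 4471 and 4844 in the knockout. All knockout libraries were higher, with a log2 fold change of 0.95 ± 0.18 (SE, limma, adjusted p = 0.0150). EFNA3 and EFNA4 lie beside EFNA1 on chromosome 1, and neither was called, at log2 fold changes of -0.19 and 0.27. EFNA5 was at 173 ± 6.18 and 176 ± 12.7 (SD, n = 3), with a confidence interval of -0.59 to 0.63 on the log2 scale. EFNA2 was low, at 17.5 ± 8.94 and 31.3 ± 10.6.

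B ephrins span the membrane and can signal into the cell that bears them. EFNB3 (chr17:7705202-7711378, plus strand), known as a midline repellent in the nervous system, was at 1535, 2088 and 1707 in the wild type and at 451, 202 and 272 in the knockout. It was 5.76-fold lower with no overlap, a log2 fold change of -2.59 ± 0.32 (SE, limma, adjusted p = 0.00251). EFNB2 (chr13:106489731-106535662, minus strand), a marker of arterial endothelium, was at 228, 214 and 515 in the wild type and at 964, 1881 and 1082 in the knockout. It was 4.10-fold higher with no overlap, a log2 fold change of 2.09 ± 0.41 (SE, limma, adjusted p = 0.0159). EFNB1 was at 271 ± 94.1 (SD, n = 3) in the wild type and 423 ± 112 in the knockout and was not called (adjusted p = 0.256, limma). ESAM, an endothelial adhesion gene, rose alongside EFNB2 and SEMA3G, from 13.5 ± 7.12 to 712 ± 85.3 (SD, n = 3), while CDH5, TIE1 and ERG stayed at or near 0.

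Among the Eph receptors, EPHA4 and EPHB6 fell and EPHB1 rose. EPHA4 (chr2:221418027-221574202, minus strand), which binds ephrins of both classes, was at 1373, 1353 and 1872 in the wild type and at 454, 312 and 244 in the knockout. It was 4.55-fold lower with no overlap, a log2 fold change of -2.21 ± 0.29 (SE, limma, adjusted p = 0.00295). EPHB6 (chr7:142855061-142871094, plus strand), an Eph receptor without kinase activity, was at 84.6, 91.4 and 137 in the wild type and at 2.54, 6.69 and 18.7 in the knockout. The knockout values came from 2 to 21 reads, and the log2 fold change was -3.66 ± 0.69 (SE, limma, adjusted p = 0.0139). EPHB1 (chr3:134597801-135260467, plus strand) was at 19.6, 26.7 and 42.7 in the wild type and at 90.2, 143 and 99.5 in the knockout. All knockout values were higher, with a log2 fold change of 1.91 ± 0.45 (SE, limma, adjusted p = 0.0304). EPHB1 missed the threshold in 7 of 19 alternative fits.

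EPHB6 lies in a stretch of chromosome 7 where other genes were lower too. Of the 95 tested genes between 140 and 160 Mb, 87.4% had a fitted change below 0 and 36.8% were called lower, and their median log2 fold change was -1.04. EPHA1, in the same stretch, was low throughout, at 13.6 ± 4.13 in the wild type and 7.23 ± 4.35 in the knockout (SD, n = 3), and was not called. The other 19 called members lay in 20 Mb windows whose medians ran from -0.19 to 0.17, the lowest being that of PLXNA4. The PLXNA4 window, 120 to 140 Mb of chromosome 7, adjoins that of EPHB6. In it 14.7% of the tested genes were called lower, against 6.79% of all genes. Around SLIT1 the share was 14.7%, and around SEMA3A, ROBO1 and ROBO2 12.5%. For the other members called lower, besides EPHB6, it ran from 6.03% to 8.48%. The part of these windows in the changes of the members was not tested.

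EPHB3, with the highest mean normalized count of the Eph receptors over the 6 libraries, was not called. It was at 5179, 3124 and 5240 in the wild type and 2448, 3640 and 3332 in the knockout. Its groups overlapped, with a log2 fold change of -0.50 and a confidence interval of -1.13 to 0.12. EPHA2, the main EphA receptor of epithelia, was at 1148, 614 and 1355 in the wild type and 782, 1536 and 1348 in the knockout, again with the lowest value of each genotype in the libraries that stood apart. EPHB4, the venous receptor of EFNB2, was at 430 ± 70.8 and 426 ± 34.3 (SD, n = 3), with a confidence interval of -0.56 to 0.55 on the log2 scale. EPHA3, EPHA7 and EPHB2 had fitted changes of -0.61, -0.48 and 0.50 and were not called.

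Slits are large secreted proteins, and of the 3 genes SLIT2 rose, SLIT1 fell and SLIT3 was not called. SLIT2 (chr4:20253260-20620561, plus strand) was at 1198, 855 and 1282 in the wild type and at 3518, 2883 and 2176 in the knockout. It was 2.57-fold higher with no overlap, a log2 fold change of 1.36 ± 0.26 (SE, limma, adjusted p = 0.0138). SLIT1 (chr10:96998038-97185920, minus strand) was low in the wild type, at 19.6, 28.2 and 22.3, and had no read in any knockout library. Taken against 3 reads per knockout library it was at least 7.14-fold lower (limma adjusted p = 0.0106). The readthrough gene ARHGAP19-SLIT1 shares its exons and is listed separately. SLIT3, the most abundant Slit in normalized counts and one known for its part in diaphragm and heart development, was at 4193, 3197 and 3944 in the wild type and 4049, 4325 and 3826 in the knockout. Its groups overlapped, with a log2 fold change of 0.11 and a confidence interval of -0.32 to 0.54.

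ROBO1 and ROBO2, receptors of the Slits, fell. ROBO1 (chr3:78597240-79767815, minus strand) was at 862, 475 and 1613 in the wild type and at 203, 327 and 179 in the knockout. The groups did not overlap, though the wild-type values spread widely, and the log2 fold change was -1.93 ± 0.46 (SE, limma, adjusted p = 0.0324). ROBO2 (chr3:75906695-77649964, plus strand) was at 299, 340 and 180 in the wild type and at 0, 27.9 and 1.78 in the knockout. The knockout values came from 0 to 25 reads, so the log2 fold change of -5.94 ± 1.13 (SE, limma, adjusted p = 0.0141) depended on the pseudocount and was -4.06 with a pseudocount of 10. ROBO3, a receptor of commissural axons, was at 163, 152 and 124 in the wild type and 146, 72.4 and 84.4 in the knockout and was not called. ROBO4, the endothelial Robo, had at most 1 read in any library. ROBO1 and ROBO2 are neighbours on chromosome 3, in a 20 Mb window of 40 tested genes whose median log2 fold change was -0.01. Of these genes 12.5% were called lower, against 6.79% of all genes.

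Of the netrins, only NTN4 was expressed enough to test. NTN4 (chr12:95657807-95791152, minus strand), a basement membrane protein related to laminins, was at 156, 34.3 and 58.0 in the wild type and at 453, 1063 and 1045 in the knockout. It was 10.3-fold higher with no overlap, a log2 fold change of 3.53 ± 0.59 (SE, limma, adjusted p = 0.00871), the steepest rise of any member tested. NTN1 had 0, 0.762 and 23.0 in the wild type and 5.08, 0 and 1.78 in the knockout, NTN3 had no read in the knockout, and NTN5 had none in 4 libraries. Among the UNC5 receptors, UNC5B was at 4089, 2645 and 4827 in the wild type and 3545, 4644 and 4392 in the knockout, with a log2 fold change of 0.16 and a confidence interval of -0.44 to 0.76. UNC5C was at 556, 559 and 476 in the wild type and 310, 120 and 271 in the knockout. All its knockout values were lower, with a log2 fold change of -1.29 ± 0.38 (SE, limma, adjusted p = 0.0661). UNC5A and UNC5D stayed under the filter.

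The ranks given above are in normalized counts that were not divided by length. Here levels were set between genes after division by the median length of each gene's protein-coding transcripts. In normalized counts per kilobase, EFNA1 was the highest ligand in the wild type, at 1518 ± 164 (SD, n = 3), and in the knockout, at 2943 ± 329. EPHB3, NRP1 and NRP2 followed in the wild type at 1066 ± 284, 1005 ± 352 and 924 ± 200 per kilobase, and these 3 did not differ beyond their spread. In the knockout the highest receptors were NRP1, at 1761 ± 554, PLXNA1, at 897 ± 254, and EPHB3, at 741 ± 146 per kilobase, of which PLXNA1 and EPHB3 did not differ beyond their spread.

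**Figure D3:**
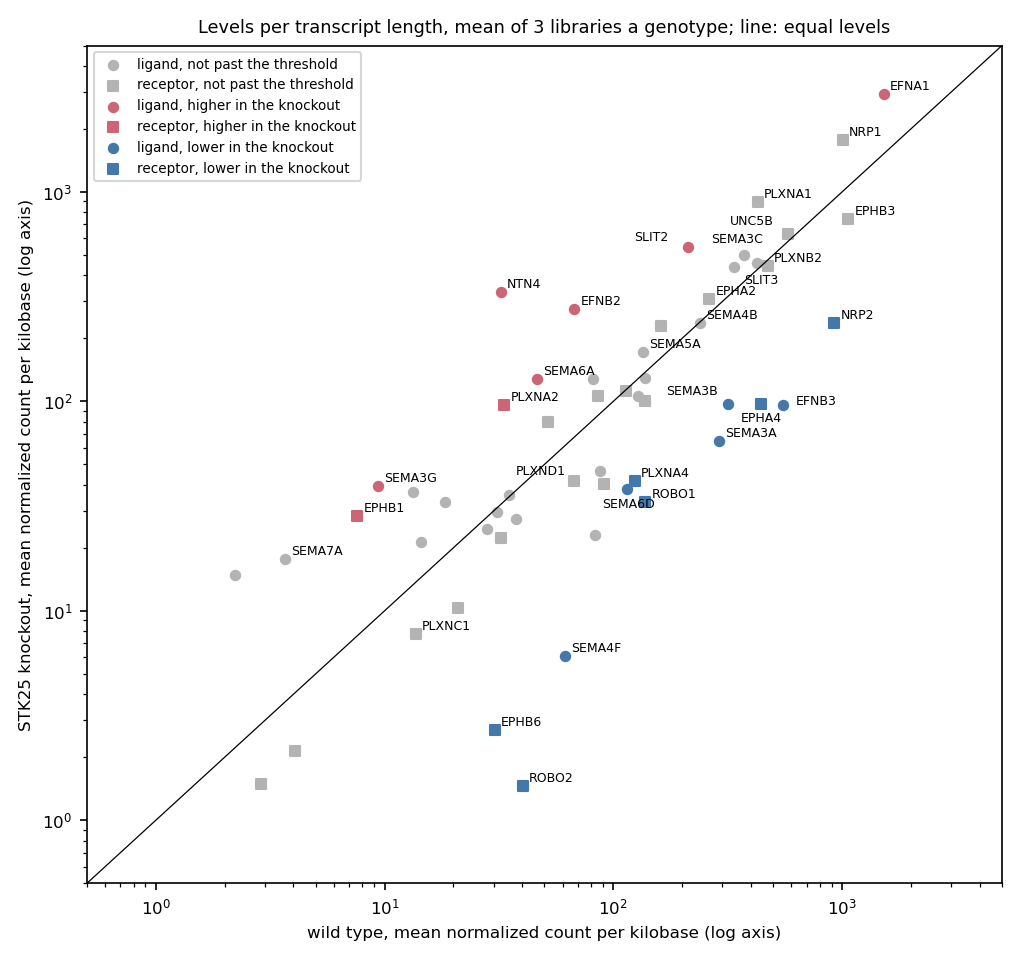
Mean level per kilobase of transcript in the wild type (horizontal, log axis) and the knockout (vertical, log axis), 1 point per tested ligand or receptor, with labels on the named genes and a line at equal levels. EFNA1 is the highest in both genotypes, and SLIT1, at 0 in the knockout, cannot be drawn on a log axis.

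The makeup of several families was not the same in the 2 genotypes. These families were chosen after the values were seen, and the shares, of summed level per kilobase, are descriptions. Among the ephrin-B ligands EFNB3 made up 79.1%, 86.5% and 70.6% in the wild type and 31.4%, 10.9% and 17.6% in the knockout. EFNB2 made up 9.52% ± 4.44 of the wild-type and 54.2% ± 13.0 of the knockout sum (SD, n = 3). EFNB3 led in each wild-type library and EFNB2 in each knockout library.

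NRP2 was 45.0%, 54.3% and 46.8% of the neuropilin level per kilobase in the wild type and 13.6%, 10.6% and 12.2% in the knockout. The neuropilin sum itself was 1929 ± 547 per kilobase in the wild type and 1997 ± 596 in the knockout (SD, n = 3), a difference smaller than the spread. PLXNA4 went from 20.2% ± 4.46 to 3.87% ± 0.970 of the class A plexins, in which PLXNA1 led in every library. In the EphA receptors EPHA4 went from 52.1% ± 7.09 to 20.3% ± 11.3, and EPHA2 from 29.7% ± 5.47 to 58.4% ± 7.37.

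SEMA6A made up 13.9%, 13.3% and 14.7% of the class 6 semaphorins in the wild type and 54.2%, 50.7% and 58.9% in the knockout. SEMA3A went from 28.7% ± 2.72 to 8.32% ± 0.874 (SD, n = 3) of class 3, in which SEMA3C led in every knockout library. SLIT2 was 32.9% ± 2.25 of the Slit level per kilobase in the wild type and 54.0% ± 5.29 in the knockout, and SLIT3 made up nearly all of the rest. The Robo sum was 211 ± 65.6 per kilobase in the wild type and 56.9 ± 11.5 in the knockout, while the Slit sum was 642 ± 98.2 and 1003 ± 144. No library of one genotype overlapped the other in either sum.

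**Figure D4:**
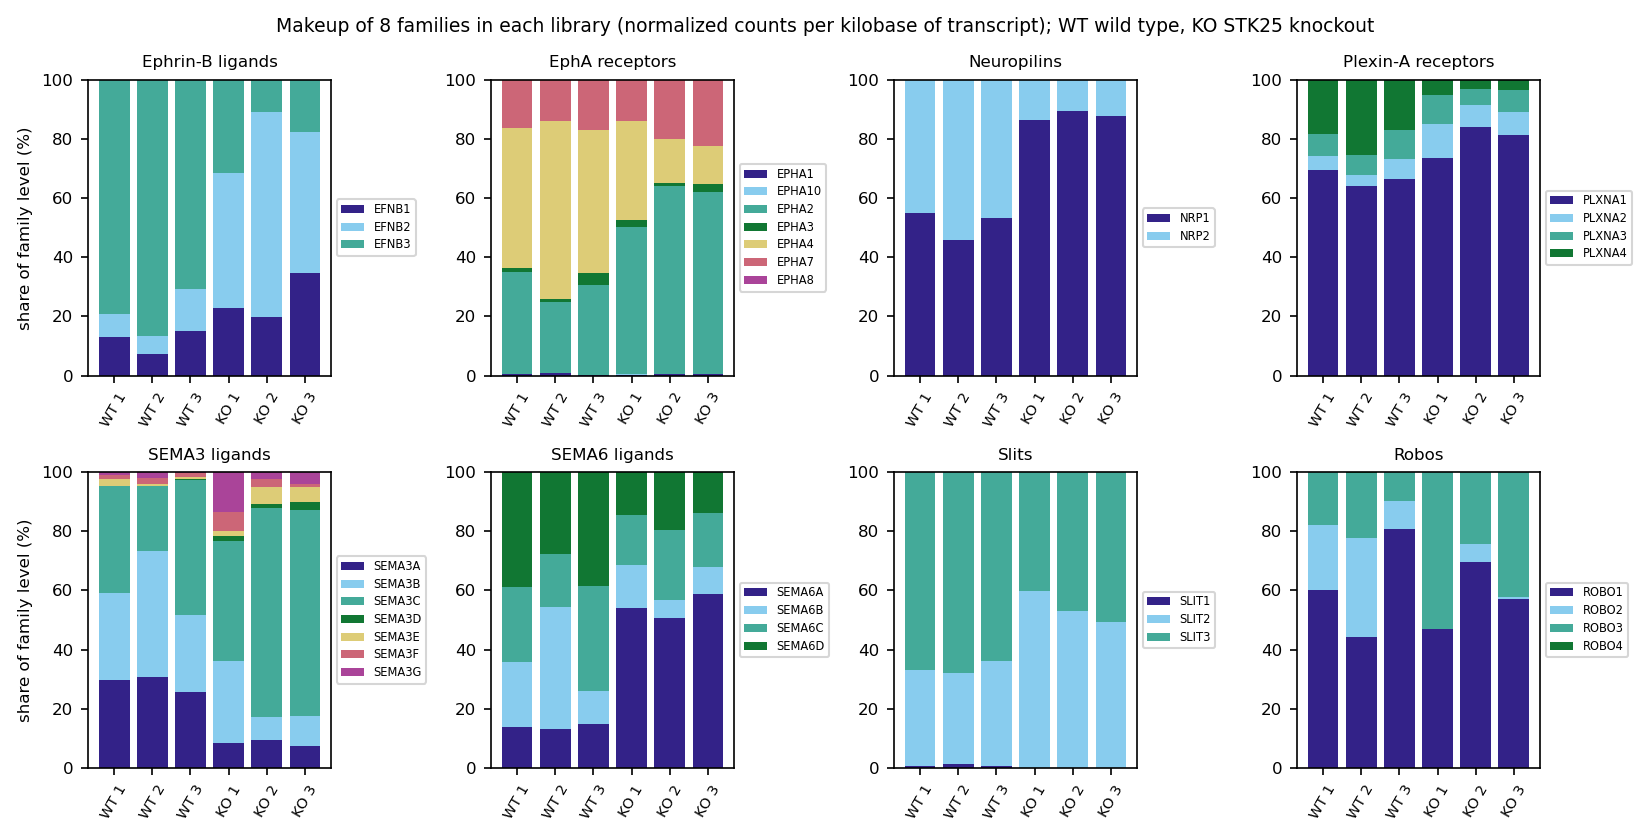
Share of each member in its family's summed level per kilobase, in percent, for 8 families in each of the 6 libraries (WT wild type, KO knockout). EFNB3 leads the ephrin-B bars in the wild type and EFNB2 in the knockout, and NRP2 drops from 45.0% or more to 13.6% or less.

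Upstream sequences were looked at to see what the members share beside their names. RefSeq start sites (GRCh38.p14) matched 60 of the 70 members, with 92 windows of 250 bases before a start. The letters GGGCGG, the core of the GC box bound by Sp factors, were found on either strand in 66 windows (71.7%), against 42.6% of 34788 distinct windows of all genes. TATAAA, the TATA box, was found on either strand in 3 windows (3.26%), against 10.8%. The windows had a median of 65.4% G and C, against 58.0% for all genes. The set of all genes, 27052 of them, was not limited to protein-coding genes, while every member is one. These shares therefore compare unlike sets. Below are the windows of the called ligand and receptor with the highest mean normalized count in each direction. The choice was among the 7 called genes with 1 listed start and no annotated exon in the window. The windows are shown because genes that rose and genes that fell both held the match, though not at the same share. It was in 7 of 8 windows (87.5%) of genes called higher and 11 of 19 (57.9%) of genes called lower. Genes not called held it in 40 of 54 (74.1%). The median G and C of the 3 sets was 72.8%, 63.6% and 65.4%, and the difference was not tested. Capitals mark GGGCGG or its reverse complement. They are SLIT2 (higher, chr4:20251655-20251904, plus strand, 5 matches), PLXNA2 (higher, chr1:208244385-208244634, minus strand, 3 matches), SLIT1 (lower, chr10:97185960-97186209, minus strand, 1 match) and EPHB6 (lower, chr7:142862506-142862755, plus strand, 1 match). The EPHB6 window lies in an intron of the GENCODE gene model.
SLIT2: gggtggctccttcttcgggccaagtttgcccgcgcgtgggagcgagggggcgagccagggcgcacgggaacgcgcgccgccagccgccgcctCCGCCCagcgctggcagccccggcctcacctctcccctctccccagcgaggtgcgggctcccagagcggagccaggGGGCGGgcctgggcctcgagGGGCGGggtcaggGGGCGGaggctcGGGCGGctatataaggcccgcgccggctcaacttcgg
PLXNA2: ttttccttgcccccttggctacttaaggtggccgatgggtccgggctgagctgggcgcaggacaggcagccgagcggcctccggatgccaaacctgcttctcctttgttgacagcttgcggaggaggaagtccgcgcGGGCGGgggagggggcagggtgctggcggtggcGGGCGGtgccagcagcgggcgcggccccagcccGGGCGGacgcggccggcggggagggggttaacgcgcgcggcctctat
SLIT1: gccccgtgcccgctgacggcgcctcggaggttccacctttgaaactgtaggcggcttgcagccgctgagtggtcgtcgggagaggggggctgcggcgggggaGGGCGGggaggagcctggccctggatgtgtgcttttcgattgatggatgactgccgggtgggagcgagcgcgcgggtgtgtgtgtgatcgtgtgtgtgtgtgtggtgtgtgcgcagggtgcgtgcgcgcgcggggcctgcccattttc
EPHB6: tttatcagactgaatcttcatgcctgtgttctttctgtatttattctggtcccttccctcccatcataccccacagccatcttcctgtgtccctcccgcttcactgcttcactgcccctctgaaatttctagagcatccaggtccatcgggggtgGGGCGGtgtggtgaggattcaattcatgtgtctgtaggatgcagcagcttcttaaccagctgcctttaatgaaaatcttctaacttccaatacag

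Known partners of these receptors were taken from 5 lists of 101 genes in all, of which 92 were tested. Of these, 10 rose and 4 fell (15.2%), a share near the 12.8% of all genes called, and their median log2 fold change was 0.06. The lists were class 3 to 7 semaphorin receptor partners (3 of 11 tested higher), plexin signalling (1 of 28 higher, 2 lower), Eph signalling (3 of 24 higher), Slit and Robo signalling (2 of 15 higher, 2 lower) and the DCC and UNC5 partners (2 of 15 higher), with FLRT3 in the last 2.

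L1CAM, an adhesion molecule that joins NRP1 in the SEMA3A receptor, was at 18.1, 0.762 and 0 in the wild type and at 191, 210 and 212 in the knockout, a log2 fold change of 5.99 ± 1.04 (SE, limma, adjusted p = 0.0102). VEGFC, a lymphatic growth factor that binds NRP2, was at 77.0, 45.7 and 40.8 in the wild type and at 505, 513 and 475 in the knockout, a log2 fold change of 3.22 ± 0.33. Both were higher in every knockout library. ITGA1, an integrin chain that pairs with the SEMA7A receptor chain ITGB1, rose by 3.56 ± 0.36 on the log2 scale, and NELL2, a ligand of ROBO3, by 3.48 ± 0.89. GRIP2, a scaffold that binds B ephrins, rose by 3.30 ± 0.40, DPYSL4, of the collapsin response mediators, by 2.33 ± 0.41, and FLRT3, a ligand of UNC5 receptors and a partner of ROBO1, by 2.03 ± 0.44. NELL2 missed the threshold in 10 of 19 alternative fits, with adjusted p-values up to 0.115 when 1 library was left out (limma): wild-type replicate 1 or any knockout library. FLRT3 missed it without wild-type replicate 1 (0.0594), knockout replicate 2 (0.0721) or knockout replicate 3 (0.0833), and DPYSL4 without knockout replicate 3 (0.0564).

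SDC1, a heparan sulfate proteoglycan of the kind that binds Slits, was at 266, 189 and 240 in the wild type and at 50.8, 69.1 and 68.4 in the knockout, a log2 fold change of -1.87 ± 0.32 (SE, limma). SDC1 missed the threshold without wild-type replicate 1 (adjusted p = 0.0651) or wild-type replicate 3 (0.0522). The other 3 partners that fell, named after their values were seen, were GPC1 at -1.44, RND2 at -1.23 and CDK5 at -0.89. CDK5 lies at chr7:151053812, in the same stretch of chromosome 7 as EPHB6. DCC, the attractive netrin receptor, was low, at 25.7, 32.8 and 47.2 in the wild type and 5.08, 18.9 and 12.4 in the knockout. All its knockout values were lower, without a call (log2 fold change -1.58, adjusted p = 0.156, limma). NEO1, its relative, was not called either (-0.62, adjusted p = 0.216).

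The calls differed in how many of the fits with 1 library left out they passed. Fewer libraries can make the threshold harder to pass, so a lost call need not mean that the change rested on the library left out. With all 6 libraries 12.8% of all genes were called. When each library was left out in turn, 8 of the 20 members kept an adjusted p under 0.05 in all 6 limma fits: EFNB3, EPHA4, NRP2, NTN4, PLXNA4, SEMA3A, SEMA3B and SEMA4F. The same 8 kept it in all 19 alternative fits. Only NTN4 among them was a rise. Without wild-type replicate 1, the library with the fewest reads, 1 member was called higher and 7 lower, and 5.12% of all genes were called. The calls lost with it were EFNA1, EFNB2, EPHB1, EPHB6, PLXNA2, ROBO1, ROBO2, SEMA3G, SEMA6A, SEMA6D, SLIT1 and SLIT2, at adjusted p-values from 0.0531 for SLIT1 to 0.116 for EPHB1 (limma). Without knockout replicate 3 the counts were 3 and 9, with 6.19% of all genes called, and EFNA1, EFNB2, EPHB1, PLXNA2, ROBO1, ROBO2, SEMA3G and SEMA6D were lost, at adjusted p-values of 0.0502 to 0.123. Without wild-type replicate 3 they were 6 and 8, with 5.90% of all genes called, and EFNA1, EPHB6, ROBO1, SEMA3G, SEMA6D and SLIT1 were lost, at 0.0640 or less for SLIT1 and SEMA6D and up to 0.122 for SEMA3G. Leaving out knockout replicate 2 gave 5 and 12, with 8.32% of all genes called and EPHB1, PLXNA2 and SEMA3G lost at 0.0560 to 0.104. SEMA3G (0.0880) and ROBO1 (0.0596) also missed the threshold without knockout replicate 1, and EPHB1 (0.0675) without wild-type replicate 2 (limma). In all, SEMA3G was lost in 5 of the 6 fits, and ROBO1 and EPHB1 in 4 each. The plot of refitted changes gives the fitted value of each gene without each library. No called member changed direction in any of the 19 fits. The genotypes did not overlap for any of them, so leaving out libraries could not reverse a direction.

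**Figure D5:**
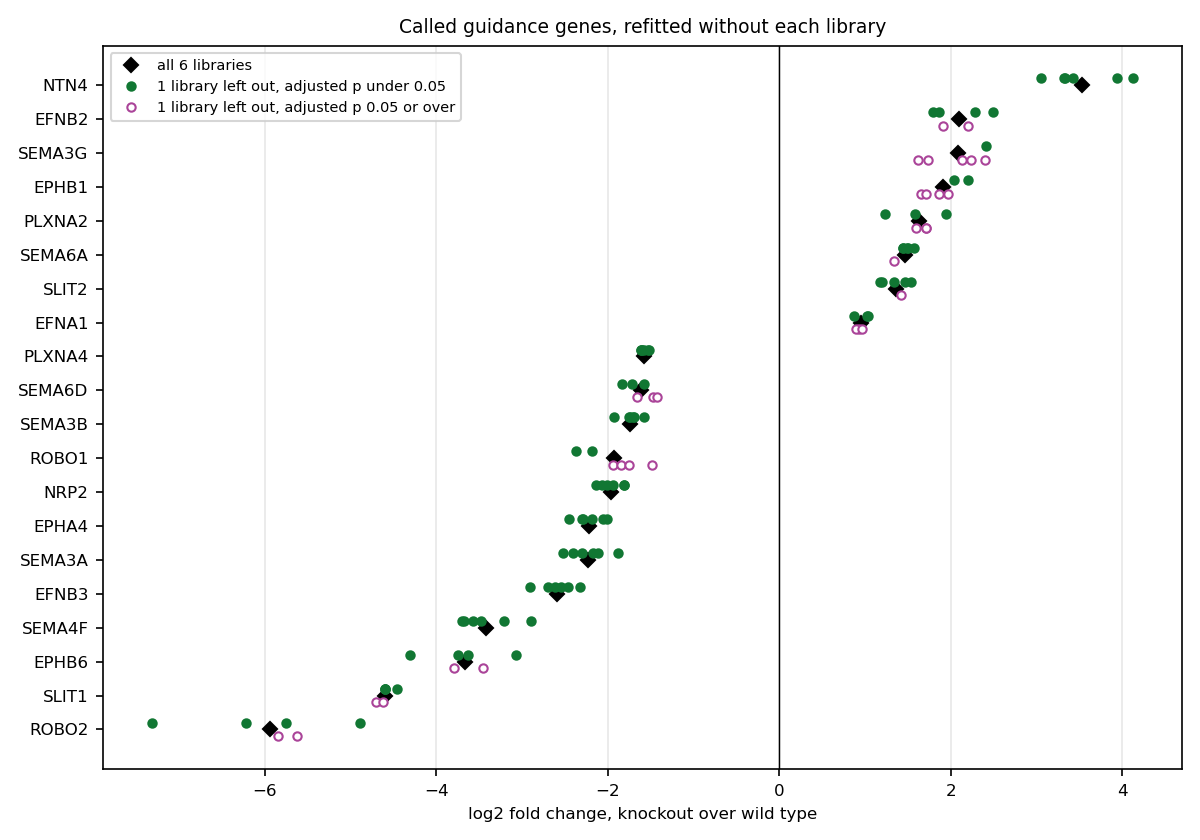
Fitted log2 fold change of each called guidance gene with all 6 libraries (diamond) and with each library left out in turn (circles, filled where the adjusted p was under 0.05). All circles of a gene stay on the same side of 0, which groups without overlap make certain, and 8 genes have 6 filled circles.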

How the data were processed

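The deposited values, 1 per symbol and library, are called normalized counts by the authors. Libraries were prepared with Clontech Ultra Low v4 and NexteraXT, per the labels' protocols. The submitters' processing notes name bcl2fastq 2.19, kallisto 0.44.0, DESeq2 1.28.1 and GRCh38, without their roles. In every library 100% of the deposited values of this signal were whole multiples (tolerance 0.001) of the value of 1 read, 0.638 to 1.51 normalized counts. Reads were recovered from these steps. kallisto divides reads shared by similar genes by estimate, which can move reads between paralogs.

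Genes with a mean of at least 10 were tested on log2(value + 1) with limma 3.58.1 in R 4.3.3 (trend, no covariate, two-sided, Benjamini-Hochberg over 15536 genes, threshold 0.05). Fold changes are on that scale and understate the change of low genes. Ratios of group means used the values themselves. The recovered reads were also tested with edgeR 4.0.16 and with DESeq2 1.42.0. The fits were tested on simulated data. A floor of 3 reads covers counting error only.

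Positions, exons and transcript lengths came from GENCODE 29, matched by symbol for all 70 members. The genes named are STK25, every called member, the highest member of each family and the 8 called partner genes with the largest change; other members are given to account for all of them. The members, the gene lists and this rule were chosen with earlier results of these data known. Replicates with the same number did not deviate together (correlations -0.23, -0.40 and 0.17), so the numbers were not used as pairs. The 19 alternatives changed the pseudocount, filter, scaling, block, variance model, tool or libraries. Figures used Python 3.11.15 and matplotlib 3.10.9.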

Additional observations from a re-analysis of the deposited data

How the results depend on the processing

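The counts of guidance genes rested mostly on the libraries used. Leaving out each library in turn gave 1 to 8 members higher, 7 to 13 lower and 7 to 15 partner genes changed, and a STK25 log2 fold change of -1.24 to -1.05, past the threshold except without wild-type replicate 1 (adjusted p = 0.061). Without wild-type replicate 2 and knockout replicate 1 together, 13 members were higher and 16 lower, 28 partner genes changed and STK25 was at -1.28. In that fit 28.9% of all genes were called. Equal totals gave 5 higher and 14 lower, with 12.9% of all genes called. With the replicate number as a block, 2 members were higher, 9 lower, 4 partner genes changed, and STK25 stayed at -1.12 (adjusted p = 0.068), with 11 of the 20 calls kept and 5.14% of all genes called. Deviations from the genotype means correlated at -0.23, -0.40 and 0.17 between same-numbered libraries, and at 0.45 between wild-type replicate 2 and knockout replicate 1. Since the deviations within a genotype cancel out, these values are tied to one another. DESeq2 called 10 higher and 14 lower, edgeR 7 and 12, where they called 3210 and 1864 of all genes, against 1982 by limma. The cause of these shifts was not tested.

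Some members without a call changed sign. SEMA4B was at -0.28 with equal totals, -0.10 with equal upper quartiles, -0.0331 in edgeR, -0.0205 in DESeq2, -0.06 without wild-type replicate 2 and knockout replicate 1 together, and -0.32 to 0.26 with 1 library left out. EPHA2 (-0.0279), SLIT3 (-0.17) and UNC5B (-0.12) turned with equal totals, and SLIT3 also with quantile normalization (-0.0166). With 1 library left out the ranges were -0.0869 to 0.547 for EPHA2, -0.0019 to 0.19 for SLIT3, -0.0926 to 0.341 for UNC5B, -0.16 to 0.98 for SEMA3C and -0.282 to 0.0507 for PLXNB2. Genes near 0 reads in a genotype, such as SLIT1, ROBO2 and EPHB6, are limited by depth.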
